A study of Mus musculus with 21 samples.

Results

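Amino acid transporters are the membrane carriers that move amino acids into and out of cells. The genes described here are Slc6a19, Slc6a20a, Slc7a5, Slc3a2, Slc1a5, Slc38a1, Slc38a2, Slc7a1, Slc7a6 and Slc43a1. They are 10 of the 51201 genes in the deposited count tables and were taken by symbol. The members were chosen by a proposal made with their measured genotype differences, L-gp130 against control within each cell type, in view, so the members' genotype differences are given as descriptions, with no p-value for a member. Counts of members called in those contrasts are printed beside the share of all genes called, and nothing is read from them. The tests read as results are on contrasts that the choice was not based on, mainly control CD4 against control CD8 cells. The control libraries are also the control arm of each genotype difference, so member levels compared there are not independent of the choice.

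T cells that are activated take up more amino acids, which feed protein synthesis and keep the kinase mTOR active. Slc7a5 and Slc3a2 form a heterodimer, the leucine exchanger LAT1-CD98. Slc1a5 exchanges glutamine and other neutral amino acids, and Slc38a1 and Slc38a2 bring glutamine in with sodium. Slc6a19 and Slc6a20a are best known from the gut and kidney epithelium, where they take up neutral amino acids and imino acids.

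The data are RNA sequencing of T cells from the spleens of C57BL/6J mice at postnatal day 35. The study compares L-gp130fl/+;CD4Cre+/- mice, in which Cre driven by the Cd4 promoter switches on a constitutively active gp130, with CD4Cre+/- controls, so every group carries CD4Cre+/-. gp130 is the common signalling chain through which interleukin-6 and its family act. CD4+ cells were held on magnetic beads (positive selection) and CD8+ cells were left over after other cells were removed (negative selection). There were 6 L-gp130 CD4, 6 control CD4, 3 L-gp130 CD8 and 6 control CD8 libraries, of which 4, 1, 2 and 4 are labelled male. Labelled sex, which is uneven between the groups of each CD4 comparison, is a covariate of every edgeR fit. Each library has a mouse number of its own within its group.

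Depth, as the gene count total of a library, separated the genotypes in CD4 cells: L-gp130 libraries held 17781085 to 21226510 counts and controls 27855757 to 35869208. CD8 totals were alike, from 17217364 to 19476881 for L-gp130 and from 17719183 to 19286396 for controls. Control CD4 replicate 5, labelled female, had Xist at 0.137 and Ddx3y at 115.6 CPM (counts scaled to the library total), the only one of 21 libraries whose reads went against its labelled sex. Summed Cd4, Cd40lg and Zbtb7b ranged from 694 to 1089 CPM in CD4 and from 26.4 to 49.1 CPM in CD8 libraries. Summed Cd8a and Cd8b1 ranged from 1407 to 1674 CPM in L-gp130 CD8, from 1851 to 2438 CPM in control CD8 and from 28.4 to 126 CPM in CD4 libraries. The sum of 6 T cell genes such as Cd3e was also lower without overlap in L-gp130 CD8 (2163 to 2426 CPM) than in control CD8 libraries (2634 to 2816 CPM). Both CD8 genes and 4 of the 6 T cell genes fell there (edgeR), and their part in the members' CD8 differences was not tested. Red cell transcripts were abundant in the CD4 libraries: the sum of 10 erythroid genes, such as the globins, was 6631 to 38552 CPM in L-gp130 CD4 and 4603 to 26208 CPM in control CD4, against 212 to 370 and 98.3 to 799 CPM in CD8. No erythroid gene was at 0 in a library of any group. In bulk RNA, a change in the number of cells of a type and a change in RNA per cell cannot be told apart.

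Slc6a19 and Slc43a1 are shown first by sequence. The reads of Slc6a19 were mostly outside its full coding transcript in every group, and Slc43a1-201 had reads in CD4 groups only. The RefSeq promoter table (build GRCm38.p6) held 7 of the 10 members in 9 windows, with none for Slc7a5, Slc1a5 and Slc38a1. For Slc6a19 it gives a start site at chr13 position 73692636, on the minus strand, which is exactly where transcript Slc6a19-202 begins. That position lies 8144 bases inside the start of the coding transcript Slc6a19-201. The 250 bases before it (chr13:73692637-73692886, minus strand) hold none of the 4 motifs searched. For Slc43a1 the table gives a start at chr2 position 84840323, between the starts of Slc43a1-202 and Slc43a1-203. The 250 bases before it (chr2:84840073-84840322, plus strand) hold an E-box, in capitals, at -64 to -59 from the start. Both are printed 5′ to 3′.
Slc6a19 upstream: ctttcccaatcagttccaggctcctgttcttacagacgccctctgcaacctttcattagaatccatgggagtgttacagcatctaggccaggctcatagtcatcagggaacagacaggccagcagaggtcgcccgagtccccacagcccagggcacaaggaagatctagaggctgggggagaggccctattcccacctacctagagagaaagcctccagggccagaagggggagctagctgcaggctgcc
Slc43a1 upstream: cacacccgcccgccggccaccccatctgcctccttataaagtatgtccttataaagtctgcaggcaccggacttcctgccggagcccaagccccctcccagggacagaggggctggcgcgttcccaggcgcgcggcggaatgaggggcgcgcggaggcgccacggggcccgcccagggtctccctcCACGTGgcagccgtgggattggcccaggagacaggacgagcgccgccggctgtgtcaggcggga

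The motifs searched on both strands were a STAT site (TTCNNNGAA), the core of the amino acid response element (TGATGNAA), the E-box CACGTG and an AP-1 site (TGANTCA). Besides the E-box of Slc43a1, matches were found in both windows of Slc7a1, the gene of the cationic amino acid transporter CAT1. One holds an AP-1 match at -123 to -117 from the start at chr5 position 148399904, and the other a STAT match at -146 to -138 from the start at 148392815. Of all 32851 promoters of 300 bases in the table, 8.3% hold the STAT site, 3.97% the response element core, 7.15% the E-box and 7.81% the AP-1 site. A match describes letters and is not evidence of binding.

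Per length, measured as TPM (reads scaled by transcript length and library total), Slc1a5 was the highest member in all 4 groups and Slc3a2 the second. Slc1a5 had medians of 160 TPM (range 136 to 178) and 121 TPM (109 to 133) in CD4 cells of L-gp130 and control mice, and of 151 (150 to 182) and 108 (87.9 to 135) in CD8 cells. Its range lay above that of Slc3a2 in each group. Slc3a2 had medians of 85.2, 70.6, 84.5 and 75.7 TPM in the same order of groups. The glutamine carriers Slc38a1 and Slc38a2 followed with medians from 42.6 to 78.2 TPM. Slc3a2 and Slc38a2, neighbours in the order of control CD4, L-gp130 CD8 and control CD8, overlapped in each.

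Below these came Slc7a5 (medians of 22 to 32.9 TPM), Slc7a6 (24 to 34.9 TPM) and Slc7a1 (15 to 18.5 TPM). Between the control cell types, the place of Slc6a19 differed most. It was sixth of 10 in control CD8 cells at a median of 25.4 TPM, overlapping Slc7a6 above it and Slc7a5 below it. In control CD4 cells it was last, at 0.262 TPM, and overlapped only its neighbour Slc6a20a at 1.18 TPM. In L-gp130 CD8 cells it was ninth, at 4.57 TPM, overlapping neither Slc7a1 above nor Slc6a20a below. Slc43a1 ran from 4.64 TPM in control CD8 to 31.3 TPM in L-gp130 CD4.

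**Figure D1:**
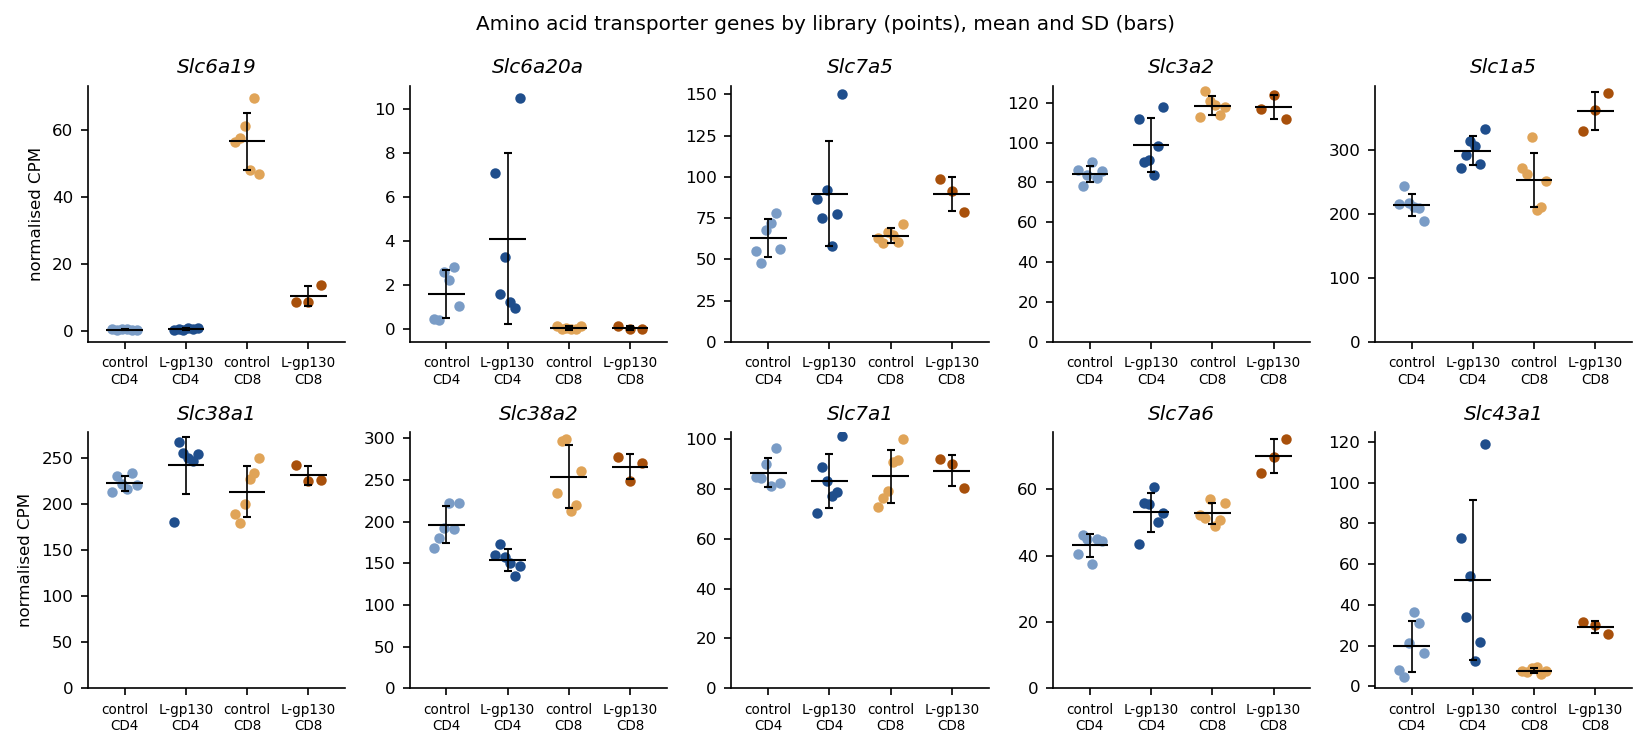
Normalised CPM of the 10 transporter genes (y axis, 1 panel per gene) in the 4 groups (x axis), from reads summed per gene and normalised over all 21 libraries; each point is a library, the wide line the mean and the bars the SD. The 6 control CD8 libraries are between 47 and 69.8 CPM for Slc6a19 while all CD4 libraries are near 0, and Slc6a20a is near 0 in every CD8 library.

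Slc6a19 (ENSMUSG00000021565, chr13:73679745-73704865, minus strand, GRCm38) encodes the sodium-dependent neutral amino acid transporter B0AT1. Levels by library are given from here on as normalised CPM of the deposited table of each cell type. In CD8 cells it had 9.63, 8.05 and 12.2 CPM in the L-gp130 libraries against 59.9, 56.1, 58.4, 47.2, 66.4 and 48.0 CPM in the controls. Every L-gp130 CD8 library was below every control, and the log2 difference was -2.50 ± 0.16 (SE), 5.65-fold lower. In CD4 cells it had 0.55, 0.807, 0.365, 0.986, 1.35 and 0.883 CPM in L-gp130 libraries and 0.662, 0.393, 0.728, 0.733, 0.412 and 0.391 CPM in controls. Those groups overlapped, with a log2 difference of 0.53 ± 0.38, at 7 to 25 reads per library. The difference between both genotype effects, CD4 minus CD8, was 2.91 ± 0.33 on the log2 scale (95% interval 2.27 to 3.56). For every member this difference comes from 1 fit to the reads summed per gene in all 21 libraries, so it need not equal the gap between the values fitted to the 2 deposited gene tables. These Slc6a19 values are among those that chose the member.

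The reads of Slc6a19 were mostly not in its full coding transcript. In control CD8 libraries 83.3% ± 3.91 (SD, n = 6) of its estimated reads were in Slc6a19-202, which the annotation types as a processed transcript. Slc6a19-202 has 11 exons, 9 of them identical to exons of Slc6a19-201, and covers 82% of the 1902 coding bases of Slc6a19-201. Another 14.1% ± 3.78 were in Slc6a19-205, typed as a retained intron, and 2.16% ± 1.11 in Slc6a19-201 itself, with 8.0 to 39.7 reads per library. In L-gp130 CD8 libraries Slc6a19-202 had 126.5, 149.4 and 141.7 reads against 836.2, 827.1, 950.2, 664.9, 1094.6 and 631.6 in controls, so the lower gene level was seen in this transcript without overlap. In all CD4 libraries together, Slc6a19-201 had reads in 1 library, 3.9 in control replicate 5. Salmon divides reads that fit several transcripts by estimation, so these shares have an error that the read numbers do not show. The sum of 5 epithelial genes was 6.84 to 12.2 CPM over the 4 groups. Epcam was at 2.46 to 9.27 CPM and rose in L-gp130 libraries of both cell types (edgeR adjusted p = 0.0334 in CD4 and 0.0152 in CD8). In CD4 cells Krt18 was called higher (edgeR adjusted p = 0.00344), and Cdh1 fell (edgeR adjusted p = 0.00268). Krt18 was at 0.485 to 1.8 CPM in L-gp130 CD4 and at 0 to 0.251 CPM in control CD4 libraries. It passed the filter on low counts through its L-gp130 reads alone, so that call is not read as a result. Vil1, at 0 to 0.383 CPM, and Krt8, at 0 to 0.216 CPM, had too few reads to be tested. Their part in the Slc6a19 values was not tested. By Spearman correlation over the 21 libraries, the genes whose levels were most like that of Slc6a19 were H2afj (0.888), Pkp4 (0.887) and Pus3 (0.886), out of 11191 genes.

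**Figure D2:**
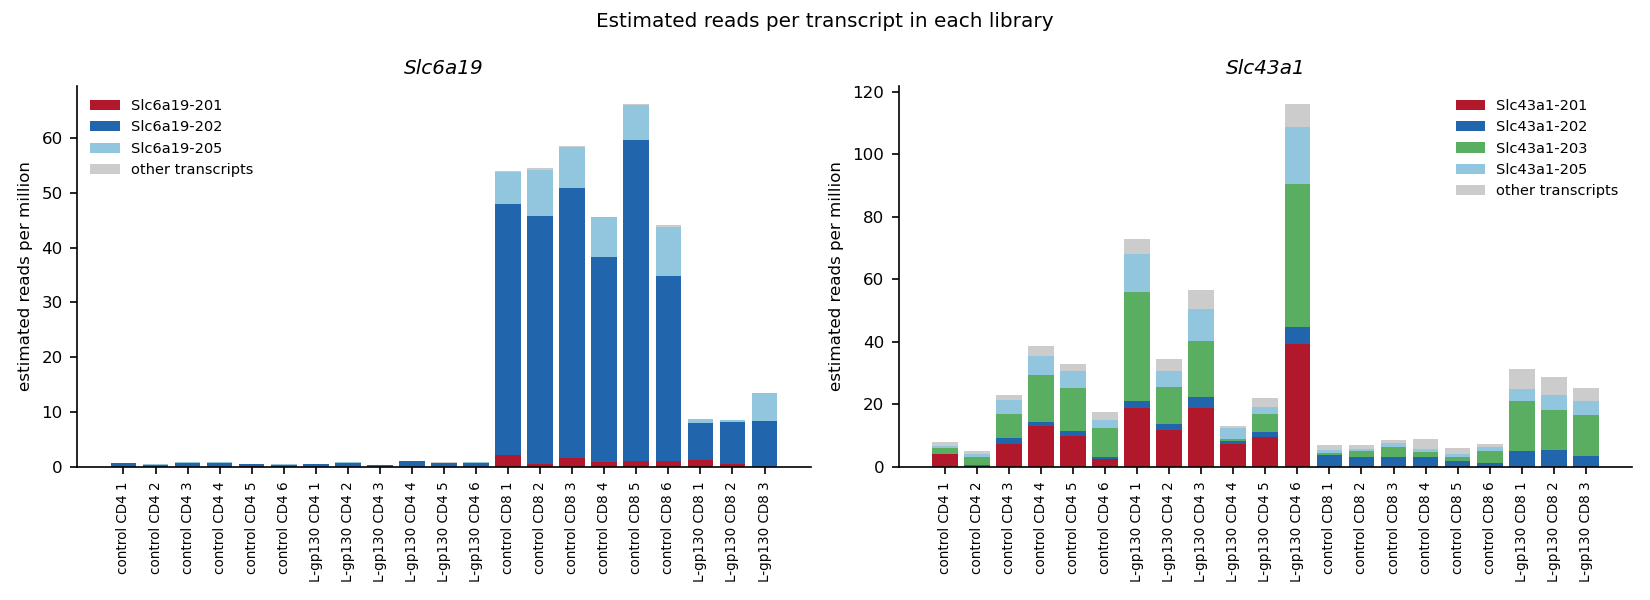
Estimated reads as CPM (y axis) for Slc6a19 (left) and Slc43a1 (right) in each of the 21 libraries (x axis), with each bar divided by transcript. Slc6a19-202 makes up most of the Slc6a19 bars of control CD8, and the red Slc43a1-201 segment is at 0 in all 9 CD8 libraries.

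Slc6a20a (ENSMUSG00000036814, chr9:123634770-123678885, minus strand), the imino acid transporter SIT1, was seen in CD4 libraries at low levels. L-gp130 CD4 libraries had 6.88, 1.61, 3.23, 1.21, 0.949 and 10.9 CPM and controls 0.49, 0.453, 2.6, 3.11, 2.86 and 1.06 CPM. Replicates 1 and 6 were the highest L-gp130 libraries and the other 4 lay within or near the control range, with a log2 difference of 1.93 ± 0.76. CD8 libraries held 0 to 3 reads each, and 5 of 9 held none, so the gene was not tested for genotype there. Its exons overlap those of Ccr9 on the other strand, and the libraries are unstranded, so reads of both cannot be told apart in the shared part. Ccr9 had 140 ± 23.8 CPM in control CD8 and 24.2 ± 5.04 CPM in control CD4 libraries (n = 6 each), the opposite order to Slc6a20a. The genes most like Slc6a20a over the 21 libraries were Hba-a1 (0.948), Gypc (0.946) and Snx22 (0.944), the first of which encodes a globin chain.

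Slc7a5 and Slc3a2 are the light and heavy chain of the same transporter. Slc7a5 (ENSMUSG00000040010, chr8:121881150-121907694, minus strand) had 89.7, 76.5, 91.0, 61.3, 84.4 and 144 CPM in L-gp130 CD4 libraries against 57.8, 48.9, 69.7, 75.3, 80.7 and 57.4 CPM in controls. The groups overlapped, and the log2 difference was 0.65 ± 0.19. In CD8 cells the L-gp130 values of 102, 86.5 and 74.6 CPM were all above the controls, at 59.5, 56.4, 61.5, 60.8, 55.6 and 68.3 CPM (log2 difference 0.54 ± 0.10). The effects in CD4 and CD8 cells differed by 0.13 ± 0.26 (95% interval -0.38 to 0.63). The genes most like Slc7a5 were Memo1 (0.932), Tubb4b (0.926) and Cenpn (0.913), the last of these a kinetochore protein.

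Slc3a2 (ENSMUSG00000010095, chr19:8706882-8723369, minus strand) had 129, 91.6, 103, 94.0, 110 and 118 CPM in L-gp130 CD4 and 84.1, 73.2, 84.6, 86.2, 82.0 and 86.1 CPM in control CD4 libraries. Every L-gp130 CD4 library was above every control (log2 difference 0.36 ± 0.10). With reads summed per gene the CD4 groups overlapped, at 83.6 to 118 CPM in L-gp130 and 78.4 to 90.3 CPM in control libraries. In CD8 cells the groups overlapped, with 119, 123 and 108 CPM against 103, 116, 107, 112, 107 and 110 CPM, and the log2 difference was 0.10 ± 0.07. With the reads summed per gene in place of the deposited gene counts, it was -0.02 ± 0.06. The effects differed by 0.25 ± 0.11 (95% interval 0.03 to 0.47), CD4 minus CD8. Within the gene, Slc3a2-207, a shorter coding transcript, took 14.6% ± 4.55 of reads in L-gp130 CD4 and 7.15% ± 3.08 in control CD4 libraries (n = 6 each), with ranges of 8.32% to 20% and 3.84% to 12.2%.

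Slc1a5 (ENSMUSG00000001918, chr7:16781340-16798274, plus strand), the glutamine exchanger ASCT2, did not overlap between genotypes in either cell type, and L-gp130 libraries were the higher. It had 284, 299, 316, 330, 278 and 327 CPM against 222, 241, 221, 236, 213 and 195 CPM in CD4 cells. In CD8 cells it had 321, 336 and 390 CPM against 248, 253, 295, 204, 195 and 235 CPM. The log2 differences were 0.48 ± 0.08 and 0.55 ± 0.10. In the joint fit to summed reads the effects, CD4 minus CD8, differed by 0.04 ± 0.14 (95% interval -0.22 to 0.31), the opposite sign to the gap between those values. Most reads of Slc1a5 were assigned to Slc1a5-202, an annotated retained intron transcript. Its share was 66.5% ± 5.71 in L-gp130 CD4, 63.1% ± 6.79 in control CD4, 72.2% ± 4.97 in L-gp130 CD8 and 65.5% ± 5.71 in control CD8 libraries.

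Of the sodium-coupled glutamine carriers, Slc38a2 had the larger genotype difference in CD4 cells, and the groups overlapped for both genes. Slc38a2 (ENSMUSG00000022462, chr15:96687392-96699730, minus strand) had 157, 176, 157, 148, 143 and 151 CPM in L-gp130 CD4 libraries and 175, 188, 201, 237, 200 and 239 CPM in controls. One L-gp130 library, replicate 2, was within the control range, and the log2 difference was -0.32 ± 0.09. In CD8 cells it had 260, 234 and 255 CPM against 227, 285, 285, 217, 218 and 266 CPM, a log2 difference of 0.00 ± 0.10. The effects differed by -0.34 ± 0.13 (95% interval -0.60 to -0.08). Slc38a1 (ENSMUSG00000023169, chr15:96571418-96642913, minus strand) had 175, 259, 255, 261, 264 and 264 CPM in L-gp130 CD4 libraries and 218 to 244 CPM in controls, with log2 differences of 0.14 ± 0.10 in CD4 and 0.14 ± 0.08 in CD8 cells. In 5 of 6 L-gp130 CD4 libraries Slc38a1 was above all controls, and replicate 1 was below all of them.

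Of the carriers of basic amino acids, Slc7a6 and Slc7a1 differed. Slc7a6 (ENSMUSG00000031904, chr8:106168857-106198706, plus strand), which encodes y+LAT2, had 41.5, 56.6, 60.3, 62.3, 56.0 and 57.1 CPM in L-gp130 CD4 libraries against 41.8, 48.0, 45.1, 38.8, 45.1 and 44.6 CPM in controls. Replicate 1 lay among the controls and the other 5 above them (log2 difference 0.37 ± 0.11). In CD8 cells Slc7a6 had 75.0, 69.9 and 61.8 CPM against 50 to 60.3 CPM, with no overlap (0.34 ± 0.09). Slc7a1 (ENSMUSG00000041313, chr5:148327410-148399904, minus strand) overlapped in both cell types, at 70.8 to 102 against 85.4 to 99.9 CPM in CD4 and 74.6 to 85.8 against 70.2 to 100 CPM in CD8 cells. Its log2 differences were -0.00 ± 0.08 and -0.03 ± 0.12. Control CD8 replicates 1 to 3 had 70.2 to 76.2 CPM of Slc7a1, and replicates 4 to 6 had 89 to 100 CPM. That split was noticed after the values were seen, and its source was not tested.

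Slc43a1 (ENSMUSG00000027075, chr2:84838850-84863594, plus strand), the large neutral amino acid transporter LAT3, varied widely among CD4 libraries. L-gp130 CD4 values were 73.3, 38.9, 52.3, 10, 25.1 and 127 CPM and control values 8.01, 4.29, 20.2, 41.5, 38.1 and 18.1 CPM. The groups overlapped, and the log2 difference of 1.95 had an SE of 0.70. In CD8 cells 32.7, 30.8 and 23.9 CPM stood against 5.36, 11.4, 8.91, 8.38, 7.28 and 6.22 CPM without overlap, with a similar log2 difference and a smaller error (1.87 ± 0.20). In the joint fit to summed reads the effects, CD4 minus CD8, differed by -0.25 ± 0.77 (95% interval -1.76 to 1.26), again the opposite sign to the gap between the values above. Slc43a1-201, the first-listed coding transcript, which starts at chr2 position 84839408, had 128.0 to 829.6 reads in L-gp130 CD4 libraries, 0 to 419.6 in control CD4 libraries and 0 in all 9 CD8 libraries. In CD8 cells Slc43a1-203, which starts at position 84840625, had 222 to 306 reads in L-gp130 and 13.3 to 75.8 reads in control libraries.

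Within each CD4 group, the libraries had the same order by Slc43a1 as by the erythroid transcripts. Against the summed CPM of 10 erythroid genes its Pearson r was 0.92 in control CD4 and 0.96 in L-gp130 CD4 libraries, with a Spearman rho of 1 in both (n = 6 each). Without the 2 libraries farthest from the median of the erythroid sum, r was 0.88 and 0.95. Slc7a5 gave r = 0.85 and 0.96 (rho 0.94 and 0.89), and Slc6a20a gave r = 0.75 and 0.95 (rho 0.83 and 0.94). These genes and lists were picked after their values were seen, so the relations are descriptions and carry no p-value.

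The same libraries were ordered much alike by transcripts of cycling cells, such as Mki67 and Top2a. Against the sum of 8 cycling cell genes, r in control CD4 and L-gp130 CD4 libraries was 0.92 and 0.95 for Slc43a1 (rho 0.77 and 0.94), 0.98 and 0.89 for Slc6a20a (rho 0.94 and 0.83), and 0.94 and 0.93 for Slc7a5 (rho 0.89 and 0.94). Both measures of a pair come from the same library. Taken as deviations from group means over all 21 libraries, the other 7 members gave r from -0.27 to 0.47 with the erythroid sum and from -0.39 to 0.63 with the cycling cell sum. In CD8 cells, Slc43a1 and Slc7a5 were higher in all L-gp130 libraries than in all controls. There the erythroid sums were 212 to 370 against 98.3 to 799 CPM, and the cycling cell sums were higher without overlap, at 925 to 1089 against 510 to 798 CPM. The part of either in the genotype differences was not tested.

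**Figure D3:**
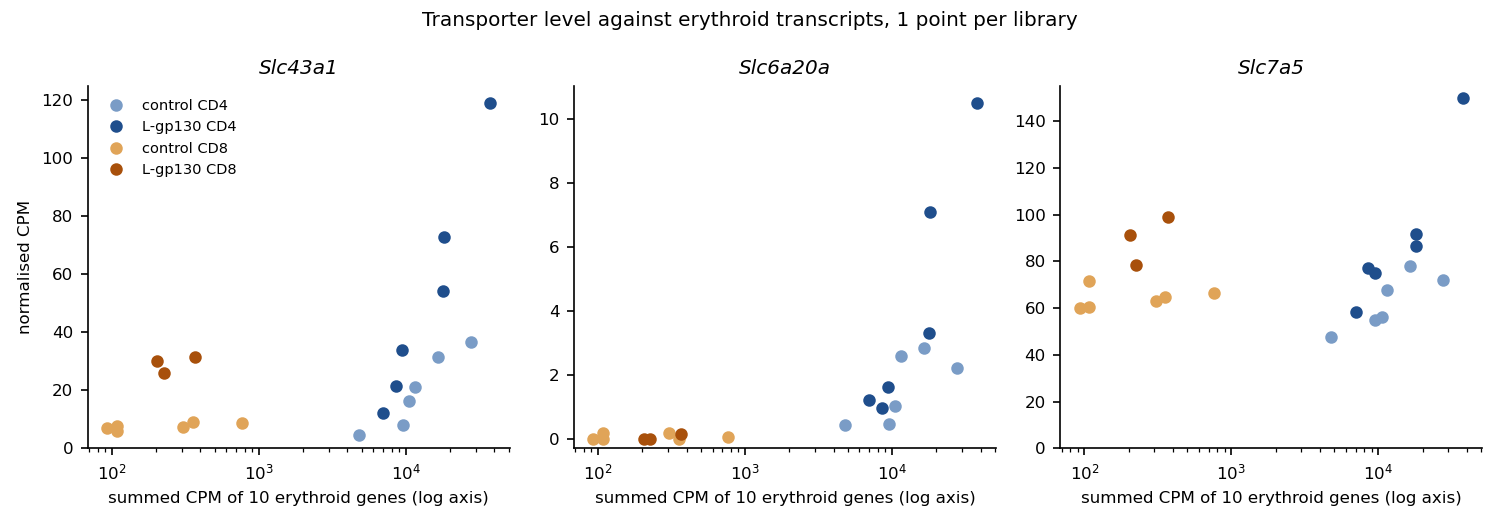
Normalised CPM of Slc43a1, Slc6a20a and Slc7a5 (y axes) against the summed CPM of 10 erythroid genes (x axis, log scale), 1 point per library, coloured by group. Within each CD4 group the library farthest to the left is at or near the bottom of its group in all 3 panels, and the L-gp130 CD8 points lie above the control CD8 points for Slc43a1 and Slc7a5 at erythroid sums of at most 799 CPM.

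Counted over the set, 4 members were called higher in L-gp130 CD4 cells by edgeR's quasi-likelihood test (adjusted p under 0.05 over all genes) and 1 lower, of 10 tested. Of all 15016 genes tested 11.1% were called higher and 7.75% lower. The members called higher were Slc7a5, Slc3a2, Slc1a5 and Slc7a6, and the one called lower was Slc38a2. Without L-gp130 replicate 6 or control replicate 1 the count of higher calls was 1, and without control replicate 3, 4 or 6 it was 2. Without both L-gp130 CD4 replicate 1 and control CD4 replicate 5 it was 5. Without L-gp130 replicate 6 no member was called lower. The ranges of 2 members, Slc3a2 and Slc1a5, did not overlap between genotypes, both higher, against 7.68% of all genes higher and 5.84% lower without overlap. With reads summed per gene, the ranges of Slc3a2 did overlap. The median log2 difference of the members was 0.43, against -0.01 over all genes tested.

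In CD8 cells 4 of 9 tested members were called higher (Slc7a5, Slc1a5, Slc7a6 and Slc43a1) and 1 lower (Slc6a19). Of all 14254 genes tested, 10.5% were called higher and 10.5% lower. These 5 members were also those whose groups did not overlap, against 11.7% of all genes higher and 12.4% lower without overlap. The median log2 difference was 0.14, against -0.01 over all genes. Because this contrast helped to choose the members, nothing is read from these counts in either cell type. Cycling cell genes moved with genotype in both: 8 of 8 rose in CD4 and 7 of 8 in CD8 cells (edgeR). Their sums were 767 to 2175 against 451 to 865 CPM in CD4 and 925 to 1089 against 510 to 798 CPM in CD8 cells, with no gene of the list at 0 in any library. Of 10 erythroid genes, 0 were called in CD4 cells by edgeR (4 at an unadjusted p under 0.05) and 3 rose in CD8 cells. The part of either list in the members' differences was not tested.

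**Figure D4:**
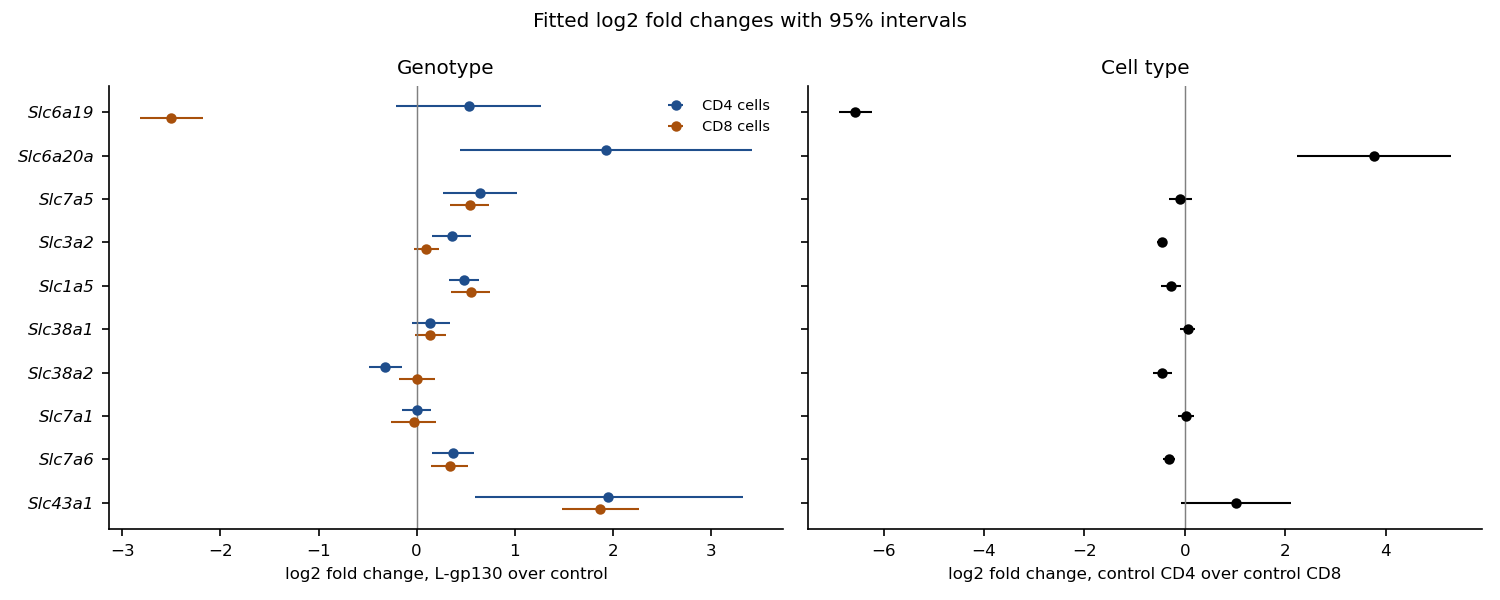
Fitted log2 fold changes with 95% intervals for each member (rows): L-gp130 over control in CD4 cells (blue) and CD8 cells (orange) on the left, and control CD4 over control CD8 on the right. The genotype effects of Slc6a19 are 0.53 in CD4 and -2.50 in CD8 cells, those of Slc1a5 are 0.48 and 0.55, and the cell type effects of Slc6a19 and Slc6a20a are -6.56 and 3.77.

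Control CD4 and control CD8 cells were then compared, a contrast that was not itself the basis for choosing the members. Its libraries are the control arms of the genotype differences that were, so its values are not independent of that choice. Cell type goes with the method of selection here, so these cannot be told apart. By edgeR's quasi-likelihood test 5 of the 10 members were lower in CD4 cells (Slc6a19, Slc3a2, Slc7a6, Slc38a2 and Slc1a5). Slc6a20a was called higher, but it passed the filter on low counts through its control CD4 reads alone, so that call is not read as a result. Over all 14660 genes tested, 27.1% were called higher in CD4 and 25.2% lower, 52.3% in all. Levels for it are normalised CPM of reads summed per gene over all 21 libraries.

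Slc6a19 had 0.641, 0.411, 0.73, 0.73, 0.429 and 0.402 CPM in control CD4 and 56.5, 57.7, 61.2, 48.1, 69.8 and 47 CPM in control CD8 libraries. It was 94.6-fold lower in CD4 cells, a log2 difference of -6.56 ± 0.17 (edgeR adjusted p = 7.58e-12), and no library overlapped. The control CD8 libraries also entered the genotype difference that chose Slc6a19, so that p-value is given as a description. Slc3a2 was lower in every control CD4 library, at 78.4 to 90.3 against 113 to 126 CPM (log2 -0.45 ± 0.05, edgeR adjusted p = 8.14e-06). Slc7a6 did not overlap either, at 37.5 to 46.3 against 49.1 to 57.2 CPM (-0.31 ± 0.06, edgeR adjusted p = 0.000437). The ranges of these 3 members did not overlap on the lower side, against 20.3% of all genes. Slc38a2 was lower too, with overlapping ranges of 168 to 223 and 213 to 299 CPM (-0.45 ± 0.10, edgeR adjusted p = 0.00216).

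Slc1a5 passed narrowly, with -0.27 ± 0.10 (edgeR adjusted p = 0.042) and ranges of 189 to 243 and 205 to 319 CPM. Its control CD8 values were 262 to 319 CPM in replicates 1 to 3 and 205 to 251 CPM in replicates 4 to 6. Without the sex covariate its adjusted p was 0.0876. It was 0.282 without control CD8 replicate 3, 0.0574 and 0.0589 without replicates 1 and 2, and 0.0633 to 0.0694 without control CD4 replicate 3, 4, 5 or 6. Slc6a20a had 0.474, 0.441, 2.59, 2.22, 2.83 and 1.04 CPM in control CD4 and 0.172, 0, 0.0542, 0, 0 and 0.171 CPM in control CD8 libraries. Every control CD4 library was above every control CD8 library, as for 18.1% of all genes, and the fitted log2 difference was 3.77 ± 0.78. With no filter on low counts, so that every gene with a read was tested, it was 3.78 ± 0.75 (edgeR adjusted p = 0.00103). With 7 reads in all 6 control CD8 libraries, either value depends on the prior count. When any control CD4 library was left out, the gene no longer passed the filter and was not tested. The erythroid sums given above also differed between CD4 and CD8 libraries, and 7 of 10 erythroid genes were higher in control CD4 (edgeR). Their part in the Slc6a20a difference was not tested.

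Slc7a5, Slc38a1, Slc7a1 and Slc43a1 were not called between the control cell types. Slc7a5 differed by -0.09 ± 0.12 (95% interval -0.32 to 0.15), Slc38a1 by 0.06 ± 0.08 (-0.10 to 0.21) and Slc7a1 by 0.02 ± 0.08 (-0.14 to 0.19). Slc43a1, at 7.97, 4.67, 21.1, 36.5, 31.3 and 16.2 CPM in control CD4 and 6.1 to 9.23 CPM in control CD8 libraries, differed by 1.01 ± 0.56 (edgeR adjusted p = 0.156). Without control CD4 replicate 2, the library with the lowest value, its edgeR adjusted p was 0.0221, and without the sex covariate it was 0.0191.

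Transcript shares within the members were also compared between the control cell types. Over all genes, 19770 transcripts holding at least 10% of a gene's reads in either group were tested with an exact 2-sided permutation test, and 14.5% were called at an adjusted p under 0.05. The smallest unadjusted p that 6 against 6 libraries allow is 0.00216. Of 19 such transcripts in 9 members 5 were called. They belong to 4 of these members, against 18.1% of all genes with a called transcript, and both calls in Slc38a2 are shares of 1 gene that sum to nearly all its reads. The groups did not overlap for 4 transcripts, against 9.75% of all. Without control CD4 replicate 5 the count of calls was 2, Slc43a1-202 and Slc7a6-207.

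Slc43a1-202 had 4.78% ± 3.16 of the gene's reads in control CD4 and 35.4% ± 12.7 in control CD8 libraries (n = 6 each, no overlap, adjusted exact permutation p = 0.0222). Its own reads were few, at 0 to 54.6 per control CD4 and 19 to 65.7 per control CD8 library. The erythroid sums also differed between these groups, and their part in this share was not tested. Slc7a6-207, a retained intron transcript, had 21.4% ± 2.09 in CD4 and 11.5% ± 3.21 in CD8 libraries, and Slc38a2-202, also one, had 15.7% ± 0.494 and 10.9% ± 3.3 (both without overlap, adjusted exact permutation p = 0.0222). Slc38a2-202 had 521.3 to 805.1 reads in control CD8 replicates 1 to 3 and 228.5 to 413.8 reads in replicates 4 to 6. Slc38a1-201, a coding transcript, had 45.1% ± 2.74 and 51.2% ± 4.17 with overlap (adjusted exact permutation p = 0.0448). Slc43a1-201 did not pass, at 26.7% ± 18 and 0 (adjusted exact permutation p = 0.0768), and control CD4 replicate 2 also had none. The shares of Slc6a19-202 did not pass either, at 78.2% ± 17.6 and 83.3% ± 3.91 (adjusted exact permutation p = 0.739), with 14 to 25 reads for the gene in each control CD4 library.

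Beyond the members, 64 other amino acid carriers were counted, 39 of the plasma membrane and 25 of lysosomes, mitochondria and other membranes. In CD4 cells 38 passed the filter on low counts, 3 rose and 3 fell by edgeR's test, with a median log2 difference of -0.05. Of all genes tested there, 11.1% were called higher and 7.75% lower. Slc7a10, the small neutral amino acid transporter Asc-1, rose from 0.41 ± 0.19 to 2.09 ± 0.881 CPM (n = 6 each, log2 2.10 ± 0.35, edgeR adjusted p = 0.00146). It may have passed the filter through its L-gp130 reads alone, so that call is not read as a result. Slc25a13, a mitochondrial aspartate-glutamate carrier, rose by 0.88 ± 0.17 (edgeR adjusted p = 0.00324), and the neutral amino acid transporter Slc1a4 by 0.79 ± 0.24 (edgeR adjusted p = 0.036). The taurine transporter Slc6a6 fell from 158 ± 8.81 to 119 ± 10.7 CPM (log2 -0.44 ± 0.08, edgeR adjusted p = 0.00173). Slc7a2 (-1.38 ± 0.44) and Slc7a8 (-1.01 ± 0.32) fell as well, both with an edgeR adjusted p near the threshold (0.0448 and 0.0449). When L-gp130 CD4 replicate 4 or 6 or control CD4 replicate 1, 2, 3, 4 or 6 was left out, 1 of these falls was called. B cell genes fell in the same comparison for 4 of 8, with sums of 203 to 510 against 219 to 853 CPM and no gene of the list at 0, and their part was not tested.

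In CD8 cells 34 of the other carriers were tested, 5 rose and 5 fell, with a median log2 difference of 0.01. Of all genes tested there, 10.5% were called in each direction. The mitochondrial serine carrier Sfxn1 rose from 55.1 ± 4.39 (n = 6) to 75.2 ± 5.78 CPM (n = 3), a log2 difference of 0.45 ± 0.08 (edgeR adjusted p = 0.0046). Slc7a4 (1.81 ± 0.44), Slc1a4 (1.70 ± 0.45) and Slc25a38 (0.33 ± 0.09), a mitochondrial glycine carrier, rose too (edgeR adjusted p = 0.0153, 0.0227 and 0.0284). Sfxn3 fell from 128 ± 10.8 to 95.9 ± 6.36 CPM (-0.42 ± 0.08, edgeR adjusted p = 0.00553). The glutamate transporter Slc1a3 fell by 2.80 ± 0.62, Slc7a2 by 2.01 ± 0.52 and the LAT4 gene Slc43a2 by 0.50 ± 0.14 (edgeR adjusted p = 0.0101, 0.0209 and 0.0336). Slc1a3 and Slc7a2 were low even in control CD8 libraries, at levels given below. They may have passed the filter on low counts through control reads alone, so their calls are not read as results. Slc25a22 (0.31 ± 0.10) and Slc6a6 (-0.26 ± 0.08), the last of the calls in each direction, are named after their values were seen. Without L-gp130 CD8 replicate 1 there were 1 rise and 1 fall, without replicate 2 there were 3 and 2, and without replicate 3 there were 1 and 3. Without control CD8 replicate 5 there were 3 rises, and without control CD8 replicate 6 there were 3 falls. Monocyte-macrophage genes fell for 4 of 8 in this comparison, with sums of 299 to 443 against 399 to 823 CPM and no gene at 0, and their part was not tested.

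The difference between the genotype effects of CD4 and CD8 cells was tested for 41 of the other carriers, and 0 were called by edgeR, by DESeq2 or by limma-voom, against 3.46% of all 15758 genes by edgeR (1.83% with the larger effect in CD4 cells and 1.62% with the smaller). At an unadjusted p under 0.05 there were 8. Leaving out L-gp130 CD4 replicate 1 gave 1 call, and leaving out control CD8 replicate 3 gave 2, 1 in each direction. Between the control cell types, 18 of 37 other carriers were higher in CD4 cells and 5 lower (edgeR), against 27.1% and 25.2% of all genes. The highest-ranked were Slc7a7 (10.1 ± 1.63 against 3.12 ± 0.678 CPM, edgeR adjusted p = 3.40e-06), Slc1a3 (3.43 ± 1.12 against 0.753 ± 0.186), Slc7a8 (9.84 ± 1.91 against 3.41 ± 0.917) and Slc7a2 (2.8 ± 0.621 against 0.817 ± 0.198). Those lower in CD4 cells were Sfxn3 (82.2 ± 5.49 against 131 ± 9.07 CPM, edgeR adjusted p = 3.03e-06), Slc38a10, Slc25a22 and Slc43a2, and Slc25a15, which is named after its value was seen. Without control CD8 replicate 6 there were 3 on that side. Genes of B cells (8 of 8), monocytes and macrophages (7 of 8) and dendritic cells (6 of 6) were also higher in control CD4 libraries, and their part was not tested. Their sums were 219 to 853, 619 to 1476 and 112 to 182 CPM in control CD4 against 32.1 to 84.1, 399 to 823 and 36 to 57.7 CPM in control CD8 libraries, with no gene of these lists at 0.

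Of 24 genes tested in CD4 cells that sense amino acids or regulate their carriers, 5 rose and 4 fell by edgeR, and 15 were not called, against 11.1% of all genes called higher and 7.75% lower. Of 23 in CD8 cells 4 rose, 4 fell and 15 were not called, against 10.5% of all genes in each direction. Their median log2 differences were 0.03 and 0.02. Rragd, a Rag GTPase that recruits mTOR complex 1 to the lysosome, rose from 6.61 ± 0.51 to 15.3 ± 2.58 CPM in CD4 cells (edgeR adjusted p = 0.000124) and from 5.78 ± 0.863 to 11.3 ± 0.903 CPM in CD8 cells (edgeR adjusted p = 0.00241). Castor1, an arginine sensor, rose by 0.91 ± 0.15 and 1.04 ± 0.15 on the log2 scale (edgeR adjusted p = 0.00118 and 0.00112). Asns, which makes asparagine, rose from 4.89 ± 3.29 to 16.9 ± 10.7 CPM in CD4 cells and from 1.64 ± 0.779 to 8.91 ± 4.02 CPM in CD8 cells (edgeR adjusted p = 0.0232 and 0.00202). Chac1 (2.57 ± 0.46, at levels under 1 CPM) and Atf5 (1.10 ± 0.22), targets of the amino acid response, rose in CD4 cells (edgeR adjusted p = 0.00233 and 0.00482), and Myc rose in CD8 cells (0.64 ± 0.18, edgeR adjusted p = 0.0331). Chac1 may have passed the filter on low counts through its L-gp130 reads alone, so its call is not read as a result. Asns in CD4 cells stands outside the rule for named genes and was chosen after its value was seen.

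The leucine sensor Sesn1 fell in both cell types (-0.63 ± 0.10 and -0.56 ± 0.09, edgeR adjusted p = 0.00109 and 0.00249). So did Rptor, a subunit of mTOR complex 1 (-0.34 ± 0.07 and -0.26 ± 0.08, edgeR adjusted p = 0.00657 and 0.0443), and the ubiquitin ligase Nedd4l (-0.71 ± 0.20 and -0.42 ± 0.12, edgeR adjusted p = 0.0245 and 0.029). Nedd4 fell in CD4 cells (-0.55 ± 0.16, edgeR adjusted p = 0.0285) and Castor2 in CD8 cells (-0.85 ± 0.16, edgeR adjusted p = 0.00424). Between control cell types 7 of 23 were higher in CD4 and 6 lower (edgeR), against 27.1% and 25.2% of all genes. Castor1 (1.36 ± 0.12), Sesn1 (0.45 ± 0.06), Trib3 (1.11 ± 0.18) and Rraga (0.23 ± 0.06) led the higher side, and Nedd4 (-0.82 ± 0.08), Myc (-1.10 ± 0.16), Nedd4l (-0.36 ± 0.08) and Atf4 (-0.66 ± 0.14) the lower.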

How the data were processed

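RNA was measured in 21 libraries, polyadenylated and sequenced unstranded as 150 bp paired ends from RNA with an integrity number above 7, per the labels' protocols. Salmon 1.5.2, Trimmomatic 0.39 and cutadapt 3.4, build GRCm38 and edgeR 3.34.1 are named, per the submitters' processing notes. Their annotation release was not given in the sources used here. The authors deposited estimated counts per gene for each cell type, which behave, per the values in the files, as TPM scaled by gene length and library total. The authors also deposited, per the file headers, estimated reads and TPM per transcript for each library.

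GENCODE mouse release 21 supplied symbols (for 51115 of 51201 gene IDs), positions and transcript types. Estimated counts were rounded and fitted over the whole table by edgeR 4.0.16 (R 4.3.3) with labelled sex as covariate, after filterByExpr and TMM scaling. The test was the 2-sided robust quasi-likelihood F test, with Benjamini-Hochberg adjusted p called under 0.05. CD4 and CD8 tables were fitted separately. Comparisons across cell types used reads summed per gene, since each gene table was scaled by itself. The SE is the size of the log2 difference divided by the root of its F statistic. Transcript shares were compared over all genes with at least 10 reads in each control library, by an exact 2-sided permutation test over libraries with p adjusted over all transcripts (Python 3.11.15, scipy 1.17.1).

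The members, lists and the rule for named genes were chosen with earlier results of these data known. The rule names all members, up to 4 called genes per direction in the list of other carriers and in the list of sensing and regulation, and the 3 genes most like Slc6a19, Slc6a20a and Slc7a5 among genes whose mean log2 CPM reached 1. The labels do not say whether mouse numbers stand for litters or days, so p-values measure the spread between mice. The alternatives tried were DESeq2 1.42.0, limma-voom (limma 3.58.1), RLE scaling, no filter, no sex covariate, reads summed per gene or the joined gene tables, a replicate block, named libraries left out and each library left out in turn. The fits were tested on simulated counts. The deposited tables of normalised values were not used here.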

Additional observations from a re-analysis of the deposited data

Results flagged for a closer look

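In 4 of 30 groups of member values checked, 1 library stood apart from the rest by Dixon's criterion, which chance alone meets in about 1 of 20 groups. Slc38a1 in L-gp130 CD4 replicate 1 was at 175 CPM, with the others between 255 and 264 CPM. Slc7a6 in the same library was at 41.5 CPM, with the others between 56 and 62.3 CPM. Slc7a5 in L-gp130 CD4 replicate 6 was at 144 CPM, with the others between 61.3 and 91 CPM, and that library also had the highest erythroid and cycling cell sums of its group (38552 and 2175 CPM). Slc3a2 in control CD4 replicate 2 was at 73.2 CPM, with the others between 82 and 86.2 CPM.

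Atf5, a transcription factor of the amino acid response, differed between cell types in its genotype effect: the effect in CD4 minus that in CD8 cells was 1.10 ± 0.27 on the log2 scale (edgeR adjusted p = 0.0264). It was at 18.4 ± 6.03 CPM in L-gp130 CD4 and 7.89 ± 1.13 CPM in control CD4 libraries (n = 6 each), and at 11.2 ± 1.34 CPM (n = 3) and 10.4 ± 1.13 CPM (n = 6) in CD8 libraries.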

How the results depend on the processing

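No direction of a called member difference or member transcript share turned under any alternative. The other carriers were followed there only as counts of calls, and the genes of sensing and regulation were not followed. In CD4 cells the other carriers gave 5 rises with DESeq2, and 5 falls without the sex covariate and with reads summed per gene. In CD8 cells they gave 2 falls with control replicates 1 to 3 left out. Without the sex covariate 2 members were higher in control CD4 than in control CD8 cells, the second being Slc43a1 (edgeR adjusted p = 0.0191). Slc1a5 in that comparison had an adjusted p of 0.0876 without the covariate, 0.0502 with limma-voom, 0.0864 with no filter and 0.0776 with the joined gene tables. With L-gp130 CD4 replicate 1 and control CD4 replicate 5 left out together, an alternative chosen after seeing the data, 3 other carriers were called lower in the difference of effects. Of transcripts, 4 differed with shares of TPM, and 2 without control CD4 replicate 5, in place of 5. The cause of these shifts was not tested.

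Leaving out 1 library at a time gave 1 to 5 members higher and 0 to 1 lower in CD4 cells, with 2 to 3 rises and 1 to 3 falls of other carriers. In CD8 cells it gave 3 to 4 members higher, 1 lower, and 1 to 5 rises and 1 to 5 falls of other carriers. Between control cell types the ranges were 0 to 1 member higher, 4 to 5 lower, 16 to 18 other carriers higher and 3 to 5 lower. In the difference of effects 0 to 1 other carriers were called on each side.

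Same-numbered mice of different groups were not treated as pairs in the main fits, and the labels do not say whether they are. Their deviations correlated at -0.29 to 0.22 between genotypes and at 0.04 to 0.24 between control CD4 and control CD8 libraries. Control CD4 replicates 1, 5 and 6 correlated best with the control CD8 library of their own number. The labelled sexes of several pairs differ, among them pair 5, whose control CD4 library had male-like reads. Whether these libraries share a mouse was not settled. With the replicate block 0 members and 1 other carrier were called lower in CD4 cells, 2 other carriers were called lower in control CD4 than in control CD8 cells, and Slc38a2 had an adjusted p of 0.0622 there. In CD8 cells the block could not be fitted with the sex covariate. Depth limits Slc6a19 in CD4 cells (7 to 25 reads per library, 95% interval of the log2 difference -0.21 to 1.27) and Slc6a20a in CD8 cells (0 to 3 reads, not tested).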

Other observations

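Across the 21 libraries, taken as deviations from their group means, Slc43a1 varied with Slc6a20a (Pearson r = 0.90) and Slc7a5 (0.88), Slc6a20a with Slc7a5 (0.85), and Slc38a1 with Slc7a1 (0.78). Slc7a5 and its partner Slc3a2 gave 0.68. These values describe libraries whose composition they share and carry no test. The near copy of Slc6a20a, Slc6a20b, had 0.405 ± 0.236 CPM in control CD4 and 0.172 ± 0.121 CPM in control CD8 libraries (n = 6 each), and reads of both genes may be divided between them by the estimation.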
